A study of Mus musculus with 11 samples.

Results

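The genes described here are the 6 EGF-like ligands *Areg*, *Ereg*, *Btc*, *Hbegf*, *Egf*, and *Tgfa*, and the 4 receptors of the Erbb family, *Egfr*, *Erbb2*, *Erbb3*, and *Erbb4*. They were taken by name, with earlier results of these data known, and are 10 of the 17016 genes with a RefSeq symbol on the array. They are measured by 21 of its 41174 probes. The data are 11 single-color Agilent arrays of RNA from mouse Leydig tumor cells (MLTCs), a cultured tumor line that responds to gonadotropin and stands in for Leydig cells of the testis. Non-targeted MLTCs (4 arrays) were transfected with non-targeting RNA, siRNA1-transfected MLTCs (4 arrays) with a first small interfering RNA against *Mamld1*, and siRNA2-transfected MLTCs (3 arrays) with a second one of different sequence. The methods speak of triplicate arrays where the labels list 4, 4, and 3, and all 11 arrays were used here. All RNAs were used at 20 nM, and all cells, including those with non-targeting RNA, were kept for 48 hours. The study's methods add that the cells were harvested after human chorionic gonadotropin (hCG) had been given to all groups, whereas the sample labels do not mention hCG. Knockdown by either siRNA was transient and partial, and nothing in the labels states that the arrays of a group come from separate cultures, so p-values measure only the spread between these arrays, which may be technical.

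EGF-like ligands are made as membrane-anchored precursors that metalloproteases of the Adam family cut from the cell surface. The released ligand binds Egfr or Erbb4, which pair with each other or with Erbb2 and Erbb3 and signal through Ras and the ERK kinases. Erbb2 binds no known ligand, and Erbb3 has little kinase activity of its own. In ovarian follicles, luteinizing hormone induces *Areg*, *Ereg*, and *Btc*, and in Leydig cells the EGF receptor can be activated downstream of the luteinizing hormone receptor and promote steroid synthesis. The question here is which of these genes are measurable in MLTCs and whether their levels differ after *Mamld1* knockdown.

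Upstream sequences are shown for 1 ligand without detectable signal, *Areg*, and for the ligand and the receptor whose probes disagree with each other below, *Tgfa* and *Egfr*. Each is the stretch of 150 bases before the transcription start on the plus strand of GRCm38.p6, from RefSeq, at chr5:91139449-91139598, chr6:86195072-86195221, and chr11:16752053-16752202, respectively. Capitals mark matches, on either strand, to TGACGTCA (the cAMP response element, through which hormones that raise cAMP can act), GGGCGG (the GC box), and TATAAA (the TATA box), which do not overlap each other here.
*Areg*: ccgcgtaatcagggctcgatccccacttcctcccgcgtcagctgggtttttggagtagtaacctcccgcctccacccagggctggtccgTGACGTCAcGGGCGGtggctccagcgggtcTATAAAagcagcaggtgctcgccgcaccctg
*Tgfa*: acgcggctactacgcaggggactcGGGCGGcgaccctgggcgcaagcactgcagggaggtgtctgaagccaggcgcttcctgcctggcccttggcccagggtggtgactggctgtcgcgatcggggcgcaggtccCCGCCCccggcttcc
*Egfr*: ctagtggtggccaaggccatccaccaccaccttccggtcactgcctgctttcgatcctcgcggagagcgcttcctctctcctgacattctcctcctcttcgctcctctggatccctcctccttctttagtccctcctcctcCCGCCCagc

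The *Areg* stretch held the complete cAMP response element, with its first base at position -61, a GC box at -52, and a TATA box at -31. Neither the cAMP response element nor the TATA box was found in the *Tgfa* and *Egfr* stretches. Those held GC boxes, at -126 and -15 for *Tgfa* and at -9 for *Egfr*. RefSeq windows of 300 bases, which also cover 50 bases after the start, were at hand for 7 of the 10 genes. Among all 32851 such windows, 1.79% held TGACGTCA, 13.6% TATAAA, and 35.7% GGGCGG. These matches describe letters and are no evidence of binding.

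Levels are given as percent of the 75th percentile of the signal on the same array, which was 469.7 to 773.8 intensity units over the 11 arrays. Levels of different probes cannot be set against each other, because probes differ in how well they bind. The image software called 58.6% to 62.6% of the spots per array clearly brighter than background, which is termed above background here, and 0 saturated. The lowest signal so called was 1.15% to 1.61% of the 75th percentile. The targeted gene, *Mamld1*, measured by 1 probe, was at 4.83%, 4.67%, 6.54%, and 6.14% with non-targeting RNA, at 2.56%, 4.22%, 2.64%, and 2.42% with siRNA1, and at 2.49%, 3.77%, and 3.59% with siRNA2. All 7 knockdown arrays lay below the 4 control arrays, with log2 fold changes of -0.93 and -0.77 (limma adjusted p = 0.00587 and 0.0315). The arrays lay on 3 slides, each with all 3 groups. Of 8 Leydig cell markers, 8 were above background on all arrays. With siRNA1, *Lhcgr* and *Cyp17a1* were lower (log2 fold changes -0.63 and -0.92, limma adjusted p = 0.00290 and 0.000224). With siRNA2, *Cyp17a1* was lower at -0.48 (limma adjusted p = 0.0239), and *Lhcgr* had 0.16 (limma adjusted p = 0.472). Summed levels of this list were 36252% to 47390% in control, 33024% to 38094% with siRNA1, and 39209% to 47136% with siRNA2. *Sox9* and *Wt1* (Sertoli cells), *Adgre1* and *Ptprc* (macrophages), *Kdr* and *Tek* (endothelium), and *Col1a1* (fibroblasts) were at background on all arrays. Other markers of these lists were above background on all 11 arrays, namely *Amh*, *Dhh*, and *Foxl2* (Sertoli and granulosa cells), *Cd14* (macrophages), *Cdh5* (endothelium), *Sycp3* (germ cells), and *Acta2* and *Pdgfra* (peritubular cells and fibroblasts). *Pdgfra* was higher with siRNA2 (log2 fold change 0.93, limma adjusted p = 0.000588), and the germ cell marker *Ddx4*, above background on 8 arrays, was lower with siRNA1 (log2 fold change -1.72, limma adjusted p = 0.000208). Summed marker levels of the Sertoli and granulosa list (3 of 6 tested) were 276% to 308% in control, 249% to 307% with siRNA1, and 427% to 513% with siRNA2, and those of the endothelial list (1 of 4 tested) were 64.0% to 70.5%, 127% to 176%, and 111% to 135%, through *Dhh* and *Cdh5*, respectively. The sums of the peritubular and fibroblast list (3 of 4 tested) were 1323% to 1736%, 1140% to 1673%, and 1196% to 1745%, those of the germ cell list (2 of 3 tested) 6.58% to 10.0%, 5.89% to 7.13%, and 6.09% to 9.28%, and those of the macrophage list (1 of 5 tested) 5.87% to 7.41%, 5.14% to 7.16%, and 4.33% to 5.80%. All these sums take in genes that were not tested and depend most on the brightest probes. In the macrophage list, for example, the untested *Csf1r* had a control mean of 2.00% beside 3.88% for *Cd14*. The part of these marker changes in the results below was not tested. Because the measurement is of bulk RNA, fewer cells that make a transcript and less transcript per cell cannot be told apart.

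Of the 10 genes, 4 had a probe that could be tested, meaning one above background throughout at least 1 of the 3 groups: the ligands *Hbegf*, *Egf*, and *Tgfa*, and the receptor *Egfr*. Their 8 probes were above background on all 11 arrays. Over the whole array, 11818 of the 17016 genes with a RefSeq symbol and 24250 of the 41174 probes could be tested. The members are thus tested less often, with 4 of 10 genes and 8 of 21 probes. The other 6 genes, with 13 probes, were not tested, and of their 143 pairs of probe and array 5 were above background.

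**Figure D1:**
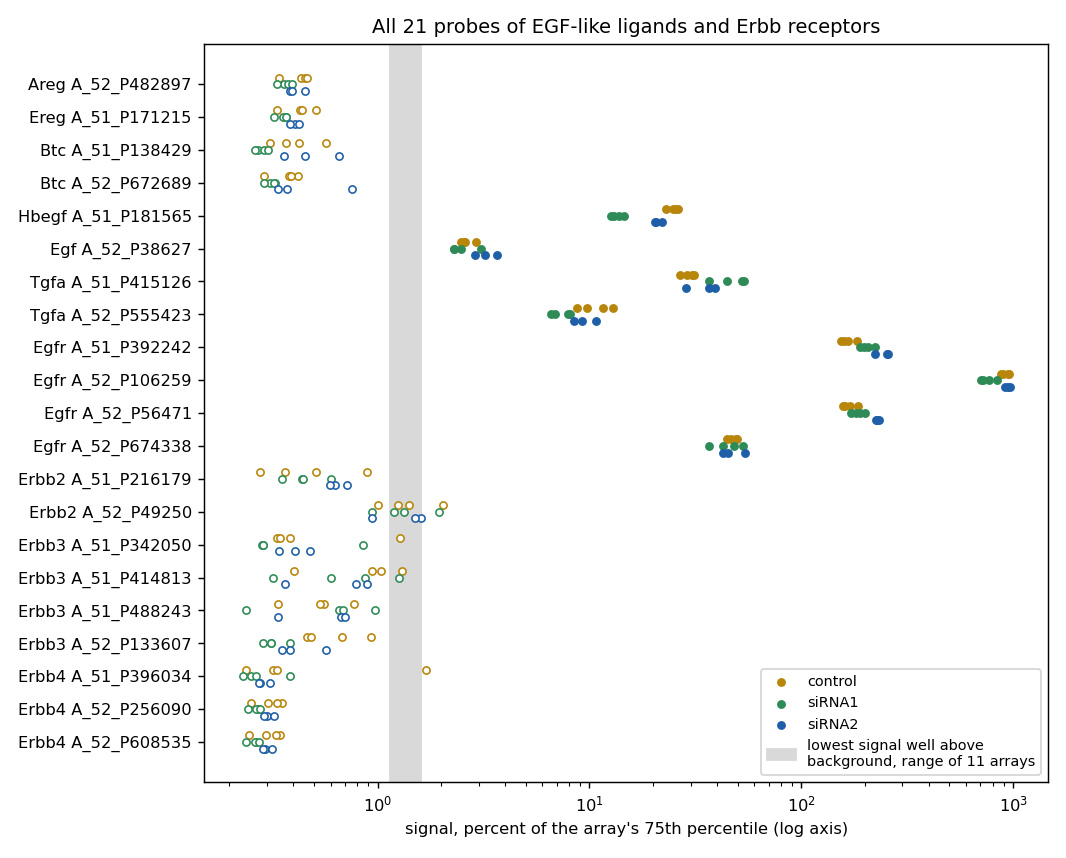
Signal of all 21 probes on each of the 11 arrays, in percent of the array's 75th percentile on a log axis. Points are arrays, colored by group, and are filled for the 8 tested probes. The gray band spans the dimmest signal called above background, 1.15% to 1.61% over the arrays. The probes of Areg, Ereg, and Btc lie to the left of the band on all arrays, and the tested probes lie to its right.

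Among the ligands induced by luteinizing hormone in the ovary, none was detected in any group. The single *Areg* probe read 0.334% to 0.465% of the 75th percentile (median 0.393%) over the 11 arrays, and the single *Ereg* probe 0.325% to 0.514% (median 0.386%). The *Btc* probes read 0.264% to 0.656% and 0.290% to 0.756%. All of these values lie below the dimmest signal that any array called above background, so that a level under that limit was not detectable, and no fold change is given.

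The 3 receptors other than *Egfr* were also mostly at background. *Erbb2*, the ligandless partner of the family, had 1 probe at background on all arrays and 1 probe, printed on 10 spots, that was above background on 4 of 11 arrays. These were control 3 at 2.03%, siRNA1 2 at 1.94%, siRNA1 3 at 1.33%, and siRNA2 2 at 1.61%. All 4 belong to the second slide, which holds these 4 arrays and no other, so that detection of *Erbb2* coincided with the slide and was spread over all 3 groups. The 4 *Erbb3* probes were at background on all arrays, with readings of 0.238% to 1.30%. Of the 3 *Erbb4* probes, 1 rose above background on 1 array, control 1, at 1.70%, against 0.231% to 0.387% on the other 10 arrays. No comparison between groups is made for these receptors.

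*Hbegf*, which encodes a heparin-binding ligand of Egfr and Erbb4, was lower in siRNA1-transfected MLTCs. Its single probe read 26.1%, 24.8%, 23.0%, and 25.7% with non-targeting RNA. With siRNA1 it read 14.6%, 13.0%, 12.7%, and 13.8%. With siRNA2 it read 20.6%, 20.4%, and 21.9%. The 3 groups did not overlap, and the siRNA2 arrays stood between the others. Groups were free of overlap for 29.1% of all tested probes between siRNA1 and control, for 28% between siRNA2 and control, and for 31.3% between the siRNAs. The share of tested probes that passed was 26.9%, 18.4%, and 23.4%, respectively. The means were 24.9% ± 1.36 (SD, n = 4), 13.5% ± 0.882 (SD, n = 4), and 21.0% ± 0.83 (SD, n = 3). The siRNA1 level was 54.3% of the control level (log2 fold change -0.88, standard error (SE) 0.077, limma adjusted p = 1.82e-05, two-sided exact permutation p = 0.0286, the smallest these numbers of arrays allow). The siRNA2 level was 84.3% of the control level (log2 fold change -0.25, SE 0.084) and did not pass the threshold (limma adjusted p = 0.0655, two-sided exact permutation p = 0.0571). With slide as a block it passed at a log2 fold change of -0.24 (limma adjusted p = 0.0266), and on the 3 slides taken singly it was -0.30, -0.17, and -0.23. The difference between the siRNAs was itself past the threshold at -0.63 (SE 0.084, limma adjusted p = 0.000306). These directions held under quantile and median scaling and turned under plain normexp background correction, to 0.08 and 0.15 against control, where a few spots with extreme local background changed the correction of whole arrays. With those spots replaced, the siRNA1 value was -0.65 (limma adjusted p = 2.74e-05).

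*Tgfa*, a ligand that binds Egfr alone, was measured by 2 probes that moved in opposite directions with siRNA1. The probe A_51_P415126, printed on 10 spots, read 31.0%, 29.0%, 26.7%, and 30.4% with non-targeting RNA. With siRNA1 it read 52.6%, 44.8%, 53.7%, and 36.8%, and with siRNA2 39.1%, 36.7%, and 28.4%. All siRNA1 arrays exceeded all control arrays, while the siRNA2 arrays overlapped them. Relative to control, siRNA1 gave a log2 fold change of 0.67 (limma adjusted p = 0.00456, SE 0.14), or 0.81, 0.88, and 0.28 on the 3 slides. It was 0.23 with siRNA2 (SE 0.15, limma adjusted p = 0.338).

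The second *Tgfa* probe, A_52_P555423 on 1 spot, read 8.76%, 9.69%, 11.6%, and 12.9% with non-targeting RNA. It read 6.61%, 8.05%, 6.85%, and 7.92% with siRNA1, and 9.25%, 8.49%, and 10.7% with siRNA2. Here all siRNA1 arrays were below all control arrays. Its log2 fold change of -0.53 with siRNA1 passed the threshold (limma adjusted p = 0.0125, SE 0.13), and that of -0.17 with siRNA2 did not (limma adjusted p = 0.502, SE 0.14). Plain normexp turned this probe to 0.49 and 0.40 (limma adjusted p = 0.529 and 0.740). Both probes carry the same RefSeq identifier, NM_031199, and their sequences were not analysed here, so that a direction for *Tgfa* as a gene cannot be given from these probes. The difference between the siRNAs was 0.43 for the first probe (limma adjusted p = 0.0580) and -0.37 for the second (limma adjusted p = 0.0931), and passed for either probe once slide was a block (limma adjusted p = 0.0317 and 0.0263).

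*Egf*, the founding member of the family, was close to the limit of detection. Its probe, on 10 spots, read 2.90%, 2.55%, 2.47%, and 2.59% with non-targeting RNA. It read 2.29%, 2.47%, 3.09%, and 2.30% with siRNA1, and 3.66%, 3.22%, and 2.87% with siRNA2. The groups overlapped in each comparison. The log2 fold changes were -0.06 with siRNA1 (95% confidence interval -0.31 to 0.20, limma adjusted p = 0.754) and 0.30 with siRNA2 (95% confidence interval 0.03 to 0.58, limma adjusted p = 0.129), and neither passed the threshold after adjustment. Under normexp correction with extreme local backgrounds replaced, the siRNA1 value was -0.24 and passed (limma adjusted p = 0.0361). The difference between the siRNAs, -0.36, missed the threshold (limma adjusted p = 0.0607) and passed it once slide was included as a block (limma adjusted p = 0.0448) or without siRNA1 3 (limma adjusted p = 0.0170).

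**Figure D2:**
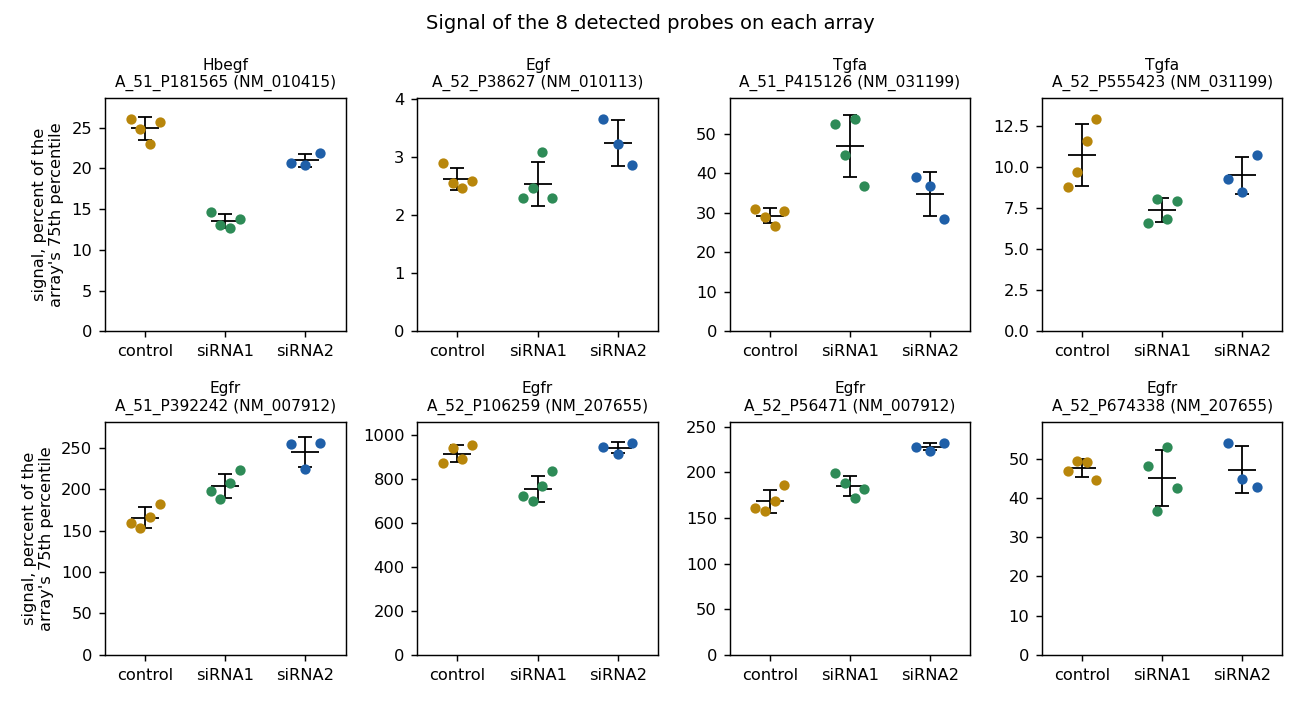
Signal of the 8 detected probes on each array, in percent of the array's 75th percentile, with axes from 0. Points are arrays, and bars are the mean ± SD of 4, 4, and 3 arrays. Hbegf falls from 23.0% to 26.1% in control to 12.7% to 14.6% with siRNA1, and the 2 Tgfa probes move apart with siRNA1.

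*Egfr*, the receptor for all 6 ligands, was the only Erbb receptor detected throughout. It has 4 probes on the array, 2 assigned to NM_207655, the transcript of the full-length receptor, and 2 to NM_007912, a shorter transcript that encodes a truncated receptor without the kinase domain. Which of these transcripts each probe can bind was not analysed here.

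The 2 probes assigned to the shorter transcript were higher with siRNA2. A_51_P392242, on 10 spots, read 159%, 153%, 166%, and 183% with non-targeting RNA, 198%, 188%, 207%, and 223% with siRNA1, and 255%, 224%, and 256% with siRNA2. The 3 groups did not overlap, with control lowest and siRNA2 highest. It rose by 0.30 on the log2 scale with siRNA1 (limma adjusted p = 0.0254, SE 0.088) and by 0.57 with siRNA2 (limma adjusted p = 0.00189, SE 0.095). The difference between the siRNAs was -0.26 (limma adjusted p = 0.0696), and -0.25 once slide was a block, where it passed (limma adjusted p = 0.0348). A_52_P56471, on 1 spot, read 161%, 158%, 169%, and 186% with non-targeting RNA, 199%, 188%, 172%, and 181% with siRNA1, and 228%, 224%, and 232% with siRNA2. Its siRNA2 arrays stood above all others, and its siRNA1 arrays overlapped control. Its log2 fold changes were 0.14 with siRNA1 (limma adjusted p = 0.234) and 0.44 with siRNA2 (SE 0.086, limma adjusted p = 0.00449), and the difference between the siRNAs passed the threshold at -0.30 (limma adjusted p = 0.0247).

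The probes assigned to the full-length transcript did not rise. A_52_P106259, on 10 spots and the brightest *Egfr* probe, read 874%, 943%, 894%, and 957% with non-targeting RNA, 722.03%, 703%, 769%, and 836% with siRNA1, and 949%, 915%, and 966% with siRNA2. Its siRNA1 arrays were below all arrays of the other groups. It was lower with siRNA1 (log2 fold change -0.28, SE 0.077, limma adjusted p = 0.0210) and not with siRNA2 (log2 fold change 0.04, 95% confidence interval -0.14 to 0.23, limma adjusted p = 0.810). The difference between the siRNAs was -0.32 (SE 0.084, limma adjusted p = 0.0174). A_52_P674338, on 1 spot, overlapped between all groups, with 44.6% to 49.5% in control, 36.7% to 53.0% with siRNA1, and 42.8% to 54.0% with siRNA2. Its log2 fold changes were -0.09 (95% confidence interval -0.35 to 0.17) and -0.02 (95% confidence interval -0.30 to 0.27). The siRNA1 calls of the probes on 10 spots were lost under median scaling, at 0.35 for A_51_P392242 (limma adjusted p = 0.0777) and -0.24 for A_52_P106259 (limma adjusted p = 0.197). The first was also lost without control 1, 2, or 3 or siRNA1 3 or 4, and the second without control 4 or siRNA1 1 or 2, with adjusted p between 0.0537 and 0.0693. The difference between the siRNAs was lost for A_52_P56471 without siRNA1 3 or 4 or any 1 of the siRNA2 arrays (limma adjusted p between 0.0529 and 0.0786), and for A_52_P106259 without siRNA2 3 (limma adjusted p = 0.0620). Median scaling lost both differences (limma adjusted p = 0.127 and 0.172). Without a filter on dim probes, the siRNA1 call of A_51_P392242 (limma adjusted p = 0.0553) and the difference between the siRNAs for A_52_P56471 (limma adjusted p = 0.0588) were lost. Plain normexp lost all 6 calls of these probes, among them those with siRNA2, at 0.42 for A_51_P392242 (limma adjusted p = 0.587) and 0.27 for A_52_P56471 (limma adjusted p = 0.738).

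**Figure D3:**
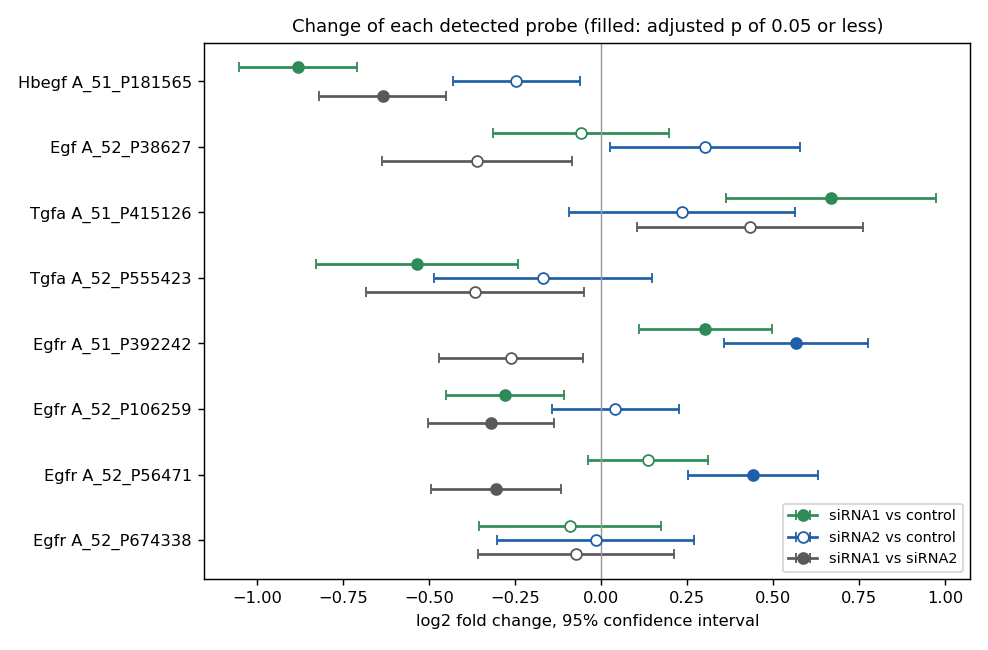
Log2 fold change of each detected probe in the 3 comparisons, with 95% confidence intervals from limma. Filled points have an adjusted p of 0.05 or less over all 24250 tested probes. Hbegf lies at -0.88 with siRNA1 and -0.25 with siRNA2, and the 2 Tgfa probes lie on opposite sides of 0 with siRNA1.

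The disagreement between probes of a gene was also measured within each array, where a single scaling factor cancels but background correction does not. This comparison was chosen after the values were seen. For *Egfr*, the log2 difference between A_51_P392242 and A_52_P106259, set to a mean of 0 in control, was 0.02, -0.15, 0.05, and 0.08 on the control arrays. It was 0.61, 0.57, 0.58, and 0.56 on the siRNA1 arrays and 0.58, 0.44, and 0.56 on the siRNA2 arrays. The probes thus moved apart by 0.58 and 0.52 with the 2 siRNAs, without overlap with control, while the siRNA1 and siRNA2 arrays overlapped. Of the 6 *Egfr* pairs this one had the largest shift with siRNA1. The smallest between an NM_007912 and an NM_207655 probe was 0.23 with siRNA1, for A_52_P56471 and A_52_P674338, with overlap (exact permutation p = 0.257). The NM_007912 probes also parted from each other, by 0.17 and 0.12 with the 2 siRNAs, without overlap with control (exact permutation p = 0.0286 for each). For *Tgfa*, the difference between A_51_P415126 and A_52_P555423 was 0.36, 0.12, -0.26, and -0.22 in control, 1.53, 1.01, 1.51, and 0.76 with siRNA1, and 0.62, 0.65, and -0.06 with siRNA2. The shift was 1.20 with siRNA1, without overlap, and 0.40 with siRNA2, with overlap. In this pair and the first *Egfr* pair, the 2 probes taken singly already lay on opposite sides of control with siRNA1. The lack of overlap with siRNA1 and its permutation p of 0.0286 follow from those single values and add no support. By the fit under plain normexp, these *Tgfa* probes had log2 fold changes of 0.81 and 0.49 with siRNA1. With extreme local backgrounds replaced, they had 0.49 and -0.40. The two-sided exact permutation p was 0.0286 for each shift of the first *Egfr* pair and of the *Tgfa* pair except that of *Tgfa* with siRNA2 (exact permutation p = 0.171), and 0.0286 becomes 0.075 after adjustment over the 21 such comparisons of probe pairs. Unequal change of 2 probes does not show which of them follows the transcript.

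**Figure D4:**
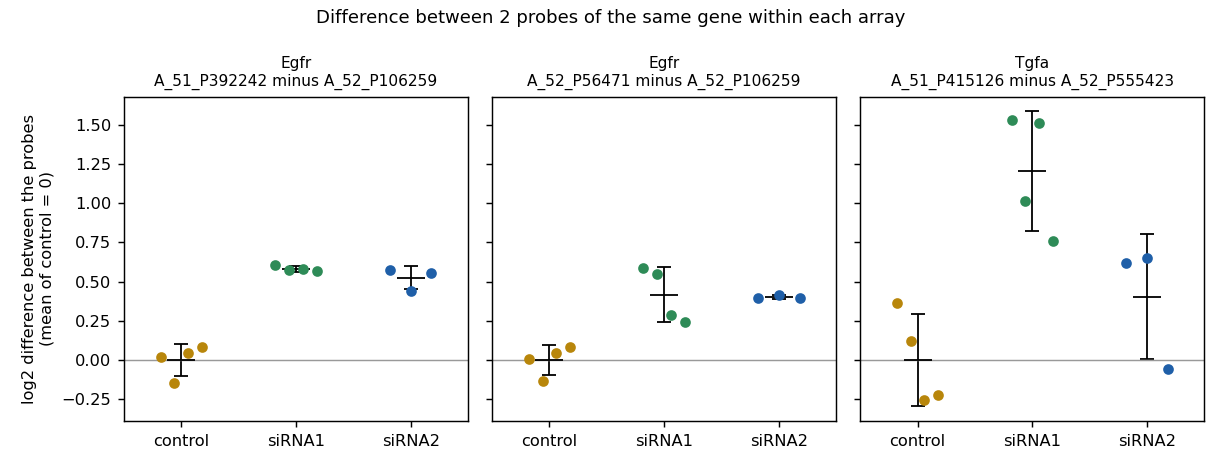
Log2 difference between 2 probes of the same gene within each array, with the mean of control set to 0. Points are arrays, and bars are mean ± SD. The first Egfr pair lies at 0.56 to 0.61 on the siRNA1 arrays and 0.44 to 0.58 on the siRNA2 arrays, and the Tgfa pair at 0.76 to 1.53 on the siRNA1 arrays.

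With each gene counted by its brightest tested probe, 3 of the 4 testable genes passed with siRNA1, against 29.3% of all 11818 genes tested in this comparison. By that probe *Hbegf* and *Egfr* were lower and *Tgfa* higher. Dimmer probes passed in the other direction with siRNA1, A_51_P392242 of *Egfr* as higher and A_52_P555423 of *Tgfa* as lower. No direction is therefore given for *Egfr* or *Tgfa* as genes. The *Egfr* probes A_51_P392242 and A_52_P56471, not counted here, were higher with siRNA2 and passed. With siRNA2, 0 of 4 passed in limma, against 20.2% of all genes, and 2 of 4, *Hbegf* and *Egf*, had an unadjusted p below 0.05. The unpaired test of the study's methods, adjusted over all probes, also passed 0 of 4. Between the siRNAs, *Hbegf* and *Egfr* passed, 2 of 4, against 26.2%. These shares rest on 4 genes and were not tested against the background. No probe of these genes changed by 2-fold or more, whereas 2.99% of all tested probes passed and changed by that much with siRNA1, 2.25% with siRNA2, and 3.34% between the siRNAs. With the probes of a gene averaged in place of taking the brightest, 1 gene passed with siRNA1 and 1 with siRNA2, and the latter was *Egfr*, which was then higher.

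Over the 11 arrays, the genes whose log2 signal most resembled that of *Hbegf*, out of 16998 probes with a gene symbol, were *Oard1*, *Mcfd2*, and *Dppa5a* (Pearson's r = 0.99 for each). Those closest to the brighter *Tgfa* probe were *Dsc2* (r = 0.97), *Edem1* (r = 0.97), and *Ercc6l2* (r = 0.96). Those closest to *Egf* were *Mbtps1* (r = 0.91), *Mdm4* (r = 0.91), and *Coq10b* (r = 0.90). These correlations describe likeness across 11 arrays of 3 groups on 3 slides, and were selected as the highest of many.

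The genes around the ligands and receptors were described by 5 lists with 75 genes, of which 60 could be tested. Each gene was counted by its brightest tested probe, and dimmer probes of a gene can give another call. With siRNA1, 14 passed as lower and 4 as higher, and with siRNA2, 15 as lower and 3 as higher. The shares lower can be read against 18.7% and 12.1% of all tested genes, and the shares higher against 10.6% and 8.03%. Both sets of counts rest on the same 4 control arrays.

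Of the other Erbb ligands, the neuregulins and *Epgn*, 1 of 5 could be tested. *Nrg4*, a ligand of Erbb4, read 35.6% to 44.7% in control, 32.9% to 38.2% with siRNA1, and 31.3% to 32.6% with siRNA2. Its siRNA2 arrays lay below all control arrays (log2 fold change -0.31, limma adjusted p = 0.0434), and the siRNA1 arrays overlapped control (log2 fold change -0.14, limma adjusted p = 0.286).

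Among 12 genes that release the ligands or restrain their release, 9 were tested. With siRNA1 2 were lower and 0 higher, and with siRNA2 3 were lower and 0 higher. The share that passed was 22.2% and 33.3%, beside 29.3% and 20.2% of all tested genes. *Adam12*, a metalloprotease that can cut the Hbegf precursor, read 15.7% to 20.3% in control, 12.9% to 19.2% with siRNA1, and 7.42% to 8.0% with siRNA2. It was lower with siRNA2 (log2 fold change -1.23, limma adjusted p = 0.000146), and its siRNA1 value was -0.21 (limma adjusted p = 0.257). *Rhbdf1*, an inactive rhomboid that guides Adam17 to the cell surface, was lower with either siRNA, at -0.40 and -0.88 (limma adjusted p = 0.0408 and 0.00128). *Timp3*, an inhibitor of Adam17, was lower with siRNA2 at -0.63 (limma adjusted p = 0.00157), with -0.27 for siRNA1 (limma adjusted p = 0.0545). *Adam15* was lower with siRNA1 at -0.63 (limma adjusted p = 0.0194), with 0.11 for siRNA2 (limma adjusted p = 0.768). A second *Adam12* probe was lower with either siRNA, at -0.41 and -0.94 (limma adjusted p = 0.0153 and 0.000238), so that for siRNA1 the probes differed in whether they passed. A second *Adam15* probe was lower with siRNA1 at -0.40 (limma adjusted p = 0.0436) and had 0.23 with siRNA2 (limma adjusted p = 0.313). The brightest *Adam19* probe, near the limit of detection, did not pass with siRNA1 at -0.13 (limma adjusted p = 0.726). Its 2 dimmer probes passed as lower with siRNA1, at -0.80 and -0.96 (limma adjusted p = 0.0360 and 0.00623). *Adam17*, the main protease for the Tgfa and Areg precursors, is named for that role and had 0.02 and -0.11, neither past the threshold (limma adjusted p = 0.901 and 0.545).

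Of 19 adaptors and members of the Ras and ERK pathway, 18 were tested, with 2 higher and 2 lower with siRNA1 and 1 higher and 3 lower with siRNA2. The share that passed was 22.2% with either siRNA, beside 29.3% and 20.2% of all tested genes. *Ptpn11*, a phosphatase that relays receptor signals to Ras, read 2321% to 2721% in control, 2089% to 2337% with siRNA1, and 1165% to 1267% with siRNA2. It was lower with siRNA2 at -1.05 (limma adjusted p = 1.78e-05) and stood at -0.20 with siRNA1 (limma adjusted p = 0.0805). A second, dimmer *Ptpn11* probe had -0.93 with siRNA2 and did not pass (limma adjusted p = 0.135). *Araf* and *Map2k2*, a Raf and a MEK kinase, were lower with siRNA1 at -0.55 and -0.53 (limma adjusted p = 0.00600 and 0.00843). *Mapk3*, the ERK1 kinase, was higher with siRNA1 at 0.47 (limma adjusted p = 0.00812). None of these 3 passed with siRNA2, although *Araf* at -0.30 and *Map2k2* at -0.27 did so once slide was a block (limma adjusted p = 0.00880 and 0.0269).

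Of 15 genes that restrain or remove Erbb receptors, 13 were tested, with 1 higher and 1 lower with each siRNA. The share that passed was 15.4% with either siRNA, beside 29.3% and 20.2% of all tested genes. *Sh3kbp1*, an adaptor in the uptake of activated Egfr, read 155% to 181% in control, 75.4% to 82.9% with siRNA1, and 166% to 189% with siRNA2. It was lower with siRNA1 at -1.05 (limma adjusted p = 9.13e-06), its 2 other probes at -0.88 and -1.09, and the difference between the siRNAs was -1.16 (limma adjusted p = 7.61e-06). *Lrig1*, which promotes breakdown of Erbb receptors, was higher with either siRNA, at 0.25 and 0.31 (limma adjusted p = 0.0408 and 0.0309). *Ptpn2*, a phosphatase that acts on Egfr, was lower with siRNA2 at -0.35 (limma adjusted p = 0.0279). The feedback inhibitor *Errfi1*, named for its role, had 0.23 and 0.07 and did not pass (limma adjusted p = 0.0928 and 0.731).

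Among 24 genes that ERK signaling can induce, along with other signals, 19 were tested. With siRNA1, 9 were lower and 1 higher, a median log2 fold change of -0.44 beside -0.08 over all genes. With siRNA2, 7 were lower and 1 higher, with a median of -0.44 beside -0.02. The share that passed was 52.6% and 42.1%, beside 29.3% and 20.2% of all tested genes (18.7% and 12.1% lower). Leaving out siRNA2 2 or siRNA2 3 reduced the count lower with siRNA2 to 3. *Etv5*, a transcription factor of the Ets family, read 6.31%, 4.90%, 5.79%, and 6.21% in control, 3.91%, 2.24%, 3.49%, and 1.79% with siRNA1, and 1.83%, 1.41%, and 1.86% with siRNA2. It was lower with siRNA1 at -1.09 (limma adjusted p = 0.00468). With siRNA2 it was above background on 1 of 3 arrays, so that the fitted value of -1.78 (limma adjusted p = 0.000533) rests on readings at the limit of detection and is not an exact size. A second, dimmer *Etv5* probe had -0.68 and -1.10 (limma adjusted p = 0.0202 and 0.00339). *Egr1* and *Egr2*, immediate early zinc finger factors, were lower at -0.72 and -0.81 with siRNA1 (limma adjusted p = 0.0171 and 0.00347) and at -0.93 and -0.61 with siRNA2 (limma adjusted p = 0.00956 and 0.0309). Control 4 was the lowest control array for both, at 379% and 345%. For *Egr1*, siRNA1 3 at 396% exceeded it, so that these groups overlapped (two-sided exact permutation p = 0.0571). *Spred1*, an inhibitor of Ras signaling, was lower at -1.01 and -0.57 (limma adjusted p = 0.000142 and 0.0114). A second, dimmer *Spred1* probe had -1.33 and -0.50 and passed with siRNA1 only (limma adjusted p = 0.000410 and 0.114). The phosphatase *Dusp6* ran the other way, with 0.11 for siRNA1 (limma adjusted p = 0.373) and a rise of 0.48 with siRNA2 (limma adjusted p = 0.00293), and *Jun* rose with siRNA1 by 0.39 (limma adjusted p = 0.0158). *Dusp6* and *Jun* are named because each is the single gene of the list that was higher with 1 siRNA, and were chosen after their values were seen.

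**Figure D5:**
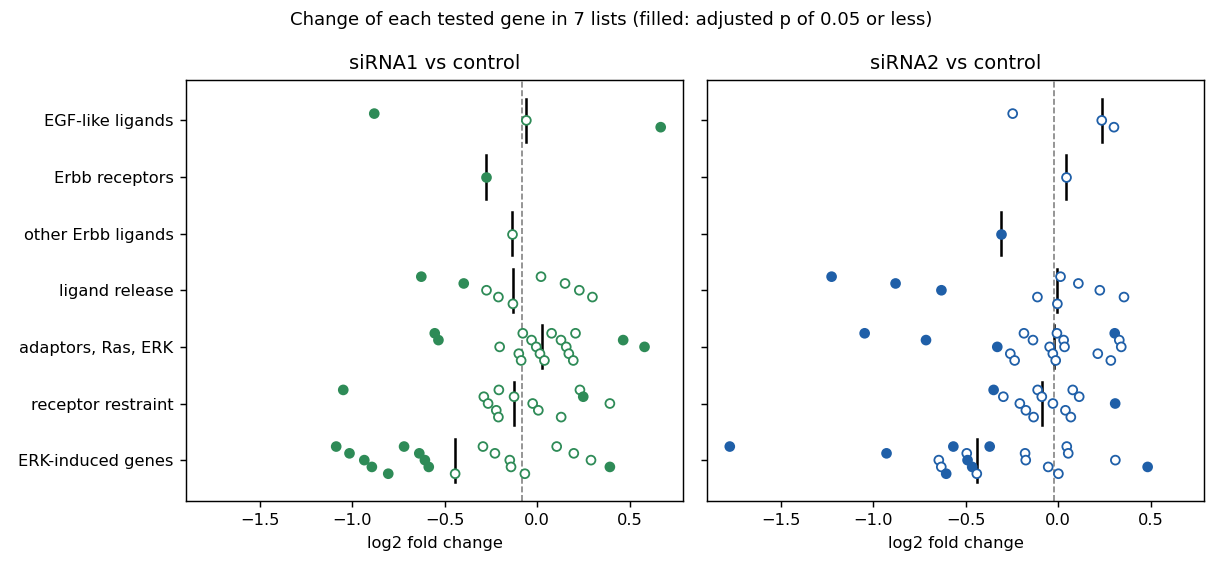
Log2 fold change of each tested gene, by its brightest probe, in the ligands, the receptors, and the 5 lists around them, for siRNA1 and siRNA2 against the same control arrays. Filled points have an adjusted p of 0.05 or less, black bars are list medians, and the dashed line is the median of all tested genes. The ERK-induced list has a median of -0.44 in either panel.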

How the data were processed

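The 11 arrays were analyzed in the groups of the sample labels. Per the file headers, the deposited intensity values were made with Agilent Feature Extraction (version 9.5.1.1), which corrected each array for background and spatial trends and did not normalize across arrays. A deposited table of the authors' group averages was not used. The maker's annotation uses an earlier mouse build than the RefSeq names. The intensity of each spot was converted to log2, and the 75th percentile over non-control spots was subtracted. Spots of a probe were averaged, with outlier-marked spots left out unless all spots of the probe were marked. A marked spot of a probe on 1 spot was therefore kept. Of the 41174 probes, 24375 were named by RefSeq accession. A probe was tested where it was above background throughout at least 1 group (24250 probes), using limma (version 3.58.1, R version 4.3.3) over all 11 arrays, with Benjamini-Hochberg adjustment and a threshold of 0.05. Exact permutation tests were two-sided. The fit was tested on simulated data.

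The genes and lists were chosen with earlier results of these data known. In each of the 5 lists, the genes named are at most the 4 with the largest mean change among those passing with either siRNA. Besides these, *Adam17* and *Errfi1* were named for their roles, and *Adam19*, *Dusp6*, and *Jun* after their values were seen. Alternatives were other background corrections, scalings, filters, blocks, tests and thresholds, the mean over probes, and leaving out each array. Precision is limited by the number of arrays.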

Additional observations from a re-analysis of the deposited data

Results flagged for a closer look

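One *Erbb3* probe, A_51_P342050, had an outlying array in 2 groups of 4 by Dixon's test, whose ratio of gap to range was 0.892 for control 3 (1.27% of the 75th percentile, against 0.333% to 0.385%) and 0.987 for siRNA1 2 (0.852%, against 0.285% to 0.289%). Both arrays lie on the second slide, and the probe was not well above background on either. Of 42 groups of 4 arrays so examined, 2 had an outlying array, and chance gives about 1 in 20.

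The effects of the siRNAs differed, by the limma test of the difference itself, for *Hbegf* (-0.63, limma adjusted p = 0.000306), for the *Egfr* probe A_52_P106259 (-0.32, limma adjusted p = 0.0174), and for the *Egfr* probe A_52_P56471 (-0.30, limma adjusted p = 0.0247).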

How the results depend on the processing

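Counts are given for siRNA1, siRNA2, and the difference between the siRNAs, in this order. Except in the mean over probes, a gene was counted by its brightest tested probe. The dimmer *Egfr* probes A_51_P392242 and A_52_P56471, which passed with siRNA2 (limma adjusted p = 0.00189 and 0.00449), thus do not count. Of the 10 genes, 4 were tested in the main fit, and 3, 0, and 2 passed. Plain normexp, the methods' t-test (unadjusted p and 2-fold), and an adjusted p with 2-fold gave 0, 0, and 0. The replaced backgrounds gave 4 with siRNA1. Slide as a block gave 4 between the siRNAs and 1 with siRNA2, median scaling gave 1 between the siRNAs, and the mean over probes gave 1 and 1 with either siRNA. Of the 60 listed genes, 18, 18, and 15 passed, against 3, 0, and 1 with plain normexp, 3, 3, and 2 with either 2-fold rule, 8 with siRNA2 and 9 between the siRNAs by the adjusted t-test, and 9 between the siRNAs without a filter. ERK-induced genes that were lower (9 and 7) numbered 2 and 0 with plain normexp, 2 and 1 with either 2-fold rule, and 1 with siRNA2 by the adjusted t-test. Leaving out 1 array gave 2 to 3, 0 to 0, and 1 to 3 of the 10 genes (1 without siRNA2 3), 13 to 18, 9 to 16, and 9 to 15 listed genes, and 6 to 9 and 3 to 7 ERK-induced genes. Listed genes fell to 11 with siRNA2 without control 1, and to 9 without siRNA2 2 or siRNA2 3.

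With the replicate number as a block, 3, 0, and 3 of the 10 genes, 23, 21, and 20 listed genes, and 10 and 9 ERK-induced genes passed. Deviations of same-numbered arrays of different groups correlated at -0.18 to 0.48 (10 pairs, median 0.28, 7 above 0.1). For the 30 pairs of other numbers the median was -0.09. Pairs on the same slide had a median of 0.27 (13 pairs, 10 above 0.1), and the 27 pairs on other slides -0.12. Of 11 arrays, 9 were closest to one of the same number. The labels state no pairing, and the main fit included neither number nor slide, which were fitted as alternatives.

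Of the probe values, 516 kept direction and call, 48 lost the call, 14 gained it, and 22 changed sign. Plain normexp turned *Hbegf* (0.082 and 0.15), *Egf* (0.87 with siRNA1, 0.22 between the siRNAs), *Tgfa* A_52_P555423 (0.49, 0.40, and 0.089), *Egfr* A_52_P56471 (-0.058 with siRNA1), A_52_P106259 (-0.15 with siRNA2), and A_52_P674338 (0.31, 0.21, and 0.10). Under it, the median log2 fold change of all tested probes was 0.22, 0.17, and 0.11, beside -0.05, -0.01, and -0.04 in the main fit. From 0 to 9 spots per array had a local background over 10 times the median. With these replaced, only *Egf* with siRNA2 turned (-0.00085). Under quantile normalization *Egf* with siRNA1 was 0.0059. *Egfr* A_52_P674338 turned with slide as a block (0.0090 with siRNA2) and when 1 array was left out, ranging from -0.17 to 0.0048 with siRNA1, from -0.12 to 0.052 with siRNA2, and from -0.16 to 0.027 between the siRNAs. The share of higher probes among those passing was 43.6% with siRNA1 (29.7% with plain normexp, 31.6% with the replaced backgrounds, 50.8% with median scaling, 51.1% with quantile normalization) and 41.8% with siRNA2 (25.4% with plain normexp). Apart from the replaced backgrounds, the causes of these moves were not tested. Levels under the lowest signal well above background could not be compared.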
